A study of Mus musculus with 18 samples.

Results

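Arc, Ier2, Ier3, Ier5, Plk2, Plk3, Rgs1, Rgs2, Gem and Ppp1r10 are early response genes outside the FOS, JUN, EGR and NR4A transcription factor families. They are 10 of the 55487 genes in a deposited table of read counts from mouse Leydig cell cultures, picked by gene symbol, and all 10 were among the 16432 genes with enough counts to be tested. The set was proposed because several of its members were strongly higher after hydrogen peroxide (H2O2) in these libraries, so the H2O2 comparisons are described here without a test.

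Leydig cells are the testosterone-producing cells of the testis. Primary cultures were transfected with an siRNA against Prdx1, which encodes the peroxide-degrading enzyme peroxiredoxin 1 (siprdx1), or with a control siRNA (siNC). Each arm had 3 groups of 3 libraries. The groups siprdx1+H2O2+FV and siNC+H2O2+FV received 200 µM H2O2 for 30 min and then 5 µM fluvastatin (FV), a statin that inhibits cholesterol synthesis, for 6 h. The groups siprdx1+H2O2 and siNC+H2O2 received the same H2O2 and then 0.1% DMSO for 6 h. The groups siprdx1 and siNC received no H2O2 and 0.1% DMSO. The labels record no DMSO where fluvastatin was given, so the drug and the lack of vehicle cannot be told apart, and fluvastatin was not given alone. The labels name no genotype, strain or age for the mice. All groups were transfected, and the labels call the replicates biological without saying whether they came from separate animals. The p-values therefore measure the spread between these libraries, which may be technical.

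The libraries held 15201530 to 23898435 counts, and levels are given as CPM, counts divided by library depth with TMM scaling between libraries. The siprdx1 libraries all lay below the siNC libraries for Prdx1, with means of 542 ± 20.8 and 1504 ± 38.4 CPM after H2O2 and fluvastatin, 524 ± 47.1 and 1632 ± 67.2 CPM after H2O2, and 464 ± 36.1 and 1327 ± 42.2 CPM without H2O2 (siprdx1 before siNC in each pair, SD, n = 3 each). Of the Leydig markers, 10 of 12 had enough counts to be tested, among them Cyp11a1 and Star, while the Leydig enzymes Cyp17a1 and Hsd17b3 averaged 0.0318 and 0.067 CPM. Markers of other cells were also measured: 17 of 17 for macrophages, 8 of 9 for fibroblasts, 8 of 8 for smooth muscle, 6 of 7 for endothelium, 7 of 8 for Sertoli cells and 2 of 10 for T, B and mast cells. Summed levels without H2O2 in siNC had medians of 18138 CPM for fibroblast markers and 8930 CPM for macrophage markers. Those of Leydig and smooth muscle markers were 1431 and 1423 CPM. In siprdx1 the medians were, in the same order, 15329, 8434, 1402 and 1152 CPM. A sum of marker levels is not a share of cells. The largest difference between replicates was that of siprdx1+H2O2 replicates 1 and 2, whose counts gave a chi-square of 15.8 per degree of freedom (2.64 to 15.8 over all pairs, where 1 is counting error).

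Early response genes are transcribed within minutes of a stimulus from factors already present in the cell, such as SRF with its ETS-family partners, CREB, and NF-kappaB, and most of their mRNAs are short-lived. Luteinizing hormone and its second messenger cAMP induce several of them in Leydig cells, and oxidants, growth factors and stress induce them in many cell types. The 10 genes differ in what they encode. Arc is a synaptic protein, the IER proteins are regulators of transcription and survival, PLK2 and PLK3 are stress-responsive kinases, RGS1 and RGS2 shorten G protein signalling, GEM is a small GTPase, and PPP1R10 is a nuclear partner of protein phosphatase 1.

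With fluvastatin after H2O2, 9 of the 10 genes had their highest mean of all groups in siprdx1+H2O2+FV, and Rgs2 had its lowest in siNC+H2O2+FV. For Ier2, Ier3, Rgs1 and Ppp1r10 the siprdx1+H2O2+FV libraries overlapped those of the group with the next highest mean. The share of all tested genes with such an order was not computed. A gene is said to rise, fall or pass below where its adjusted p was under 0.05 in edgeR's quasi-likelihood test, with Benjamini-Hochberg adjustment over all genes tested. In siprdx1 cells 9 members rose with fluvastatin and 1, Rgs2, fell, against 12.6% of all tested genes that rose and 11.0% that fell. In siNC cells 6 rose and Rgs2 fell, against 13.5% and 11.3% of all tested genes. Of the knockdown comparisons, that after H2O2 alone had the most calls: 8 members were lower in siprdx1 than in siNC cells, against 1.83% of all tested genes, and 1, Gem, was higher, against 0.901%. That comparison uses the H2O2 libraries whose levels served to choose the genes, and the part of that choice was not tested. Without H2O2 only Gem passed, as higher in siprdx1 cells (0.657% of all tested genes), and after H2O2 and fluvastatin Gem and Plk2 passed as higher (1.62%).

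**Figure D1:**
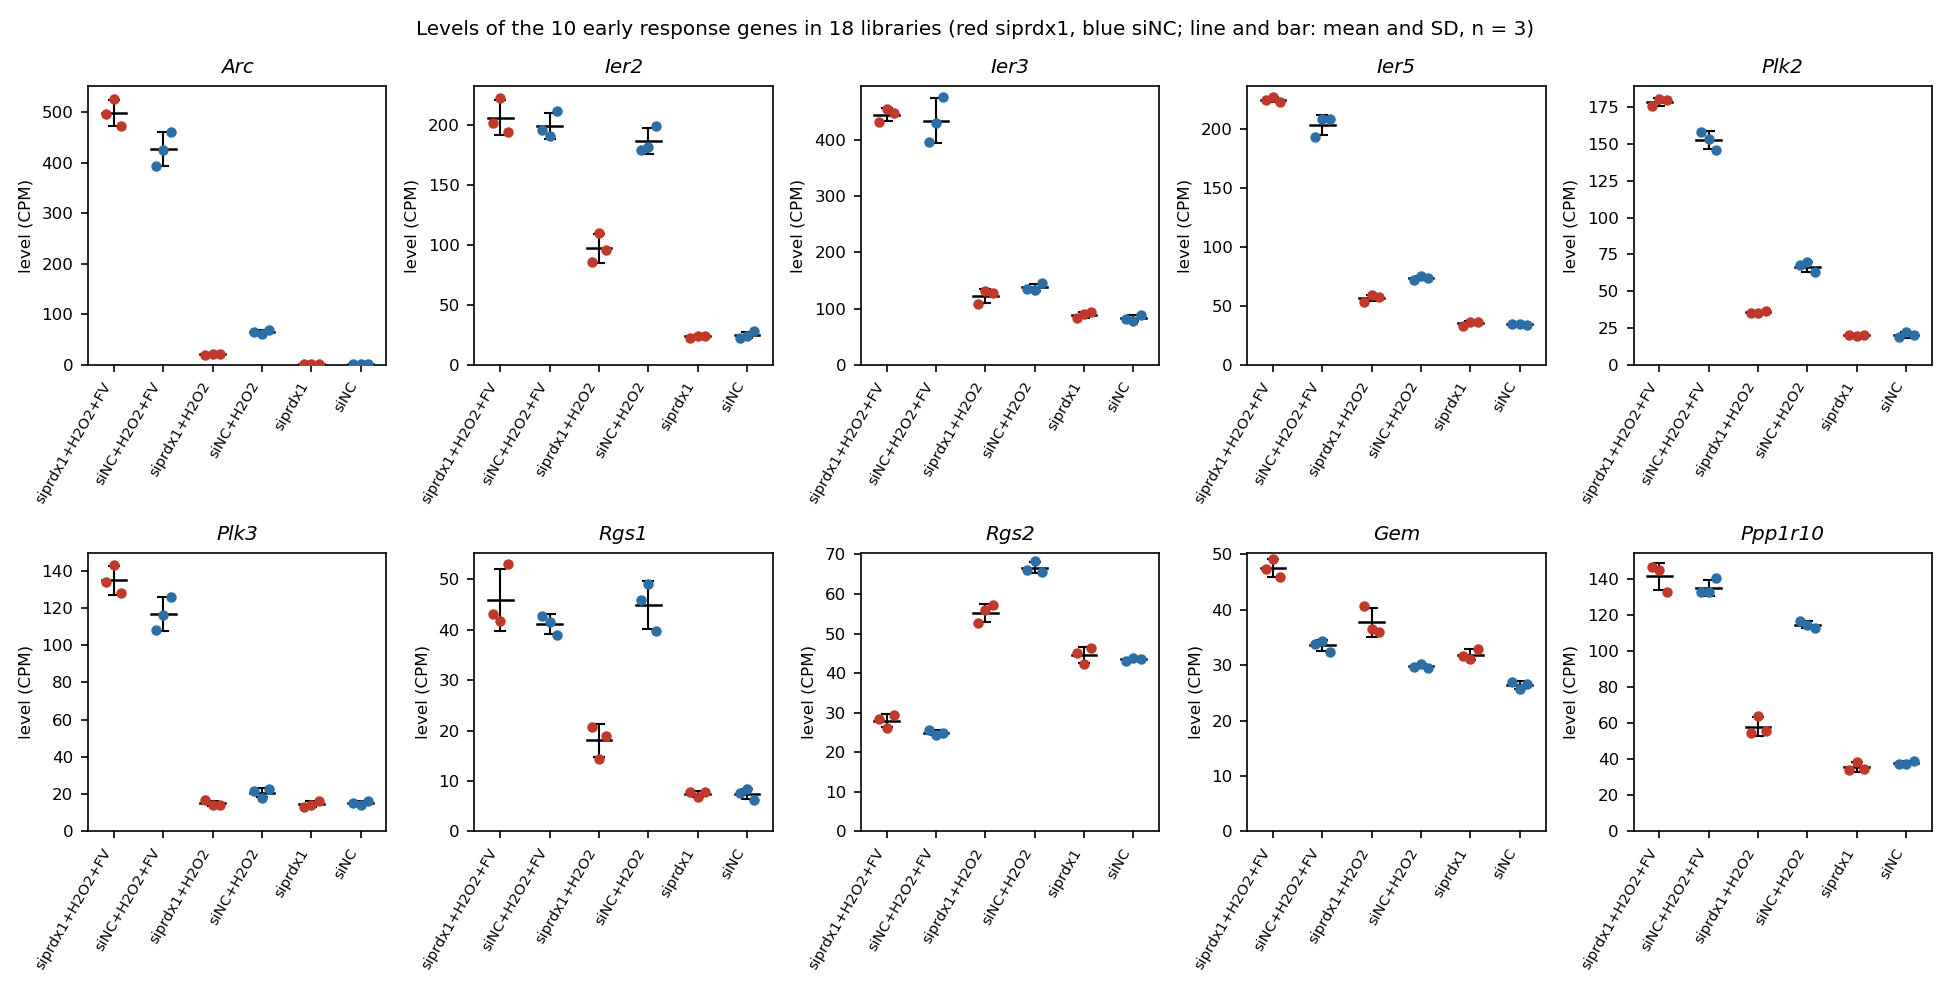
Level in CPM (vertical axes, linear, from 0) of each of the 10 genes in the 18 libraries, with siprdx1 in red left of siNC in blue within each treatment. Points are libraries, lines and bars are the mean and SD of 3 libraries. The means of 9 genes are highest in siprdx1+H2O2+FV, and Rgs2 is lowest in the 2 fluvastatin groups. For Ier2, Ier3, Rgs1 and Ppp1r10 the siprdx1+H2O2+FV points overlap those of the group with the next highest mean.

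Arc (ENSMUSG00000022602, chromosome 15, 74669083 to 74672570, minus strand, coordinates from GENCODE M21 on GRCm38, the mm10 assembly) encodes a protein that removes AMPA receptors from synapses and is a classical early response gene of neurons. After H2O2 and fluvastatin its level was 496, 525 and 473 CPM in the siprdx1 libraries and 394, 425 and 461 CPM in the siNC libraries. After H2O2 alone it was 19.3, 21.5 and 21.7 CPM in siprdx1 and 65.4, 61.7 and 69.4 CPM in siNC. Without H2O2 it was 1.76, 2.24 and 1.94 CPM in siprdx1 and 1.28, 2.49 and 1.81 CPM in siNC. The treatments did not overlap in either arm, and Arc had the widest range of the 10 genes, its highest group mean being 268 times its lowest. The untreated levels rested on 31 to 53 counts a library in siprdx1 and 28 to 57 in siNC, so folds against them carry more counting error than those of the other members.

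As a description, Arc was 10.4-fold higher after H2O2 than without it in siprdx1 cells and 35.0-fold higher in siNC cells. Fluvastatin after H2O2 raised it further, 23.9-fold in siprdx1 cells (log2 fold change 4.58 ± 0.090 (SE), edgeR adjusted p = 5.13e-21) and 6.51-fold in siNC cells (2.70 ± 0.081 (SE), edgeR adjusted p = 2.13e-17). After H2O2 the knockdown left Arc at 31.8% of the siNC mean, a log2 fold change of -1.65 ± 0.087 (SE), edgeR adjusted p = 2.31e-11. No other member fell as far with knockdown after H2O2, and the groups did not overlap. With both treatments it was 0.22 ± 0.075 on the log2 scale in siprdx1 over siNC, which did not pass in edgeR (adjusted p = 0.106) but passed in DESeq2 (adjusted p = 0.037) and limma voom (adjusted p = 0.0396). Without H2O2 the log2 difference between the arms was 0.098 ± 0.20, with a 95% interval of -0.32 to 0.52.

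The IER genes are named for their early response; Ier2 and Ier5 encode related proteins and Ier3 an unrelated one. Ier2 (ENSMUSG00000053560, chromosome 8, 84661331 to 84662852, minus strand) encodes a nuclear protein. Its level after H2O2 and fluvastatin was 201, 222 and 194 CPM in siprdx1 and 196, 190.4 and 211 CPM in siNC, and after H2O2 alone 86.1, 109.6 and 95.5 CPM in siprdx1 and 179, 182 and 199 CPM in siNC. Without H2O2 it was 22.6, 24.2 and 24.1 CPM in siprdx1 and 22.8, 23.7 and 28.2 CPM in siNC. The siNC cells were thus about as high after H2O2 alone as after H2O2 and fluvastatin, with overlapping groups, whereas the siprdx1+H2O2 libraries lay below both. Fluvastatin raised Ier2 in siprdx1 cells (log2 fold change 1.09 ± 0.080 (SE), edgeR adjusted p = 2.95e-10). In siNC cells the log2 difference was 0.094 ± 0.079 (SE), edgeR adjusted p = 0.432, with a 95% interval of -0.070 to 0.26. After H2O2 the siprdx1 cells had 52.0% of the siNC level (-0.94 ± 0.080 (SE), edgeR adjusted p = 7.43e-08).

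Ier3 (ENSMUSG00000003541, chromosome 17, 35821684 to 35822923, plus strand) encodes IEX-1, a regulator of cell survival and a known NF-kappaB target. It was the highest of the 10 genes per length without H2O2, at 78.8 CPM per kb of exon in siprdx1 and 73.4 in siNC. Its level after H2O2 and fluvastatin was 431, 455 and 447 CPM in siprdx1 and 396, 429 and 476 CPM in siNC, and after H2O2 alone 107, 130.5 and 128 CPM in siprdx1 and 134, 133 and 145 CPM in siNC. Without H2O2 it was 83.7, 89.8 and 93.9 CPM in siprdx1 and 82.0, 78.5 and 88.5 CPM in siNC. The siprdx1 and siNC libraries overlapped without H2O2 and after H2O2 and fluvastatin, while after H2O2 alone all 3 siprdx1 libraries lay just below the siNC libraries. Fluvastatin raised Ier3 3.65-fold in siprdx1 (1.87 ± 0.074 (SE), edgeR adjusted p = 3.51e-15) and 3.15-fold in siNC (1.66 ± 0.074 (SE), edgeR adjusted p = 3.85e-14), and the difference between the arms was 0.21 ± 0.10 on the log2 scale, which did not pass (edgeR adjusted p = 0.395, 95% interval -0.0026 to 0.42). Ier3 was also the member for which the knockdown after H2O2 did not pass, at -0.17 ± 0.074 (edgeR adjusted p = 0.269, 95% interval -0.33 to -0.022).

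Ier5 (ENSMUSG00000056708, chromosome 1, 155096361 to 155099636, minus strand) encodes an adaptor of protein phosphatase 2A that activates the heat shock factor HSF1. With H2O2 and fluvastatin it had 225, 227 and 223 CPM in siprdx1 and 194, 209 and 209 CPM in siNC, and after H2O2 alone 53.6, 59.1 and 57.7 CPM in siprdx1 and 71.7, 75.3 and 73.6 CPM in siNC. Without H2O2 it had 33.4, 36.6 and 36.6 CPM in siprdx1 and 35.1, 34.4 and 33.9 CPM in siNC. Ier5 followed the same order of treatments as Ier3 with smaller levels, and none of its groups overlapped except the 2 without H2O2. It rose with fluvastatin in siprdx1 (1.99 ± 0.054 (SE), edgeR adjusted p = 2.17e-18) and in siNC (1.47 ± 0.053 (SE), edgeR adjusted p = 7.45e-16). It was lower in siprdx1 than in siNC cells after H2O2, at 77.2% of the siNC mean (-0.37 ± 0.054 (SE), edgeR adjusted p = 0.000226).

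Promoter windows of 300 bases, 250 before to 50 after the start site, were taken from RefSeq on GRCm38.p6, where 6 of the 10 members had an entry. Both strands were searched for the cAMP response element (CRE) TGACGTCA and its half-site TGACG, the AP-1 site TGANTCA, the SP1 box GGGCGG, the CCAAT box, the TATA box TATAAA, the EGR site GCGNGGGCG, the heat shock core GAANNTTC, the CArG box that SRF binds and the kappaB site. Of 32851 windows, 1.79% held the full CRE, 20.8% the half-site, 7.81% the AP-1 site, 35.7% the SP1 box, 37.4% CCAAT, 13.6% TATAAA, 5.55% the EGR site, 7.86% the heat shock core, 1.63% a CArG box and 8.46% a kappaB site. None of the 6 members' windows held the AP-1 site or a CArG box. A match is a description of the letters and not evidence of binding. The window of Ier3, shown as the member with the kappaB match, lies at chr17:35821463-35821762 (plus strand), with matches in capitals. They are 2 CCAAT boxes and, starting at position -96 from the start site, an SP1 box that overlaps the kappaB site at -92.
Ier3: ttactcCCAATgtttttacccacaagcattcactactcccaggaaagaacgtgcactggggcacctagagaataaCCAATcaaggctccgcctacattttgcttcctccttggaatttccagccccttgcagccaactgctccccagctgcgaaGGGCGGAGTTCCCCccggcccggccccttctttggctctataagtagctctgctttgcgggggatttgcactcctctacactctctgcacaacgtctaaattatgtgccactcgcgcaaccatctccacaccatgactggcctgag

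Plk2 and Plk3 encode polo-like kinases that, unlike the mitotic kinase Plk1, are induced by stress and growth factors. Plk2 (ENSMUSG00000021701, chromosome 13, 110395046 to 110400844, plus strand) had 175, 180.5 and 179 CPM in siprdx1 and 158, 153 and 146 CPM in siNC after H2O2 and fluvastatin. After H2O2 alone it had 35.2, 34.9 and 36.7 CPM in siprdx1 and 67.5, 69.7 and 63.0 CPM in siNC, and without H2O2 20.6, 19.3 and 20.4 CPM in siprdx1 and 18.8, 22.3 and 19.9 CPM in siNC. Replicates lay close together, and the order of the arms differed by treatment: siprdx1 was below siNC after H2O2 and above it after H2O2 and fluvastatin, in both cases without overlap. Fluvastatin raised Plk2 5.01-fold in siprdx1 (2.33 ± 0.061 (SE), edgeR adjusted p = 1.24e-18) and 2.29-fold in siNC (1.19 ± 0.059 (SE), edgeR adjusted p = 2.37e-13). After H2O2 the knockdown left 53.3% of the siNC level (-0.91 ± 0.061 (SE), edgeR adjusted p = 2.08e-09). After H2O2 and fluvastatin the siprdx1 level was 117% of the siNC level (0.23 ± 0.057 (SE), edgeR adjusted p = 0.0236), a call that was lost when siprdx1+H2O2+FV replicate 1, 2 or 3 or siNC+H2O2+FV replicate 2 or 3 was left out (adjusted p 0.069, 0.0946, 0.0773, 0.0825 and 0.09).

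Plk3 (ENSMUSG00000028680, chromosome 4, 117128655 to 117133963, minus strand) had a small log2 difference with H2O2 alone, 0.063 ± 0.10 in siprdx1 and 0.43 ± 0.098 in siNC, beside 0.83 ± 0.067 and 1.71 ± 0.064 for Plk2. It had 134, 143 and 128 CPM in siprdx1 and 108, 116 and 126 CPM in siNC after H2O2 and fluvastatin, and 16.8, 14.3 and 14.4 CPM in siprdx1 and 21.6, 17.9 and 22.6 CPM in siNC after H2O2 alone. Untreated, it had 12.9, 14.4 and 16.3 CPM in siprdx1 and 15.5, 14.3 and 16.2 CPM in siNC, so that the siprdx1 libraries with and without H2O2 overlapped. With fluvastatin it rose 8.92-fold in siprdx1 (3.16 ± 0.093 (SE), edgeR adjusted p = 1.08e-17) and 5.63-fold in siNC (2.49 ± 0.091 (SE), edgeR adjusted p = 7.98e-16), next to Arc the largest rises of the 10 genes in each arm. After H2O2 it was lower in siprdx1 than in siNC cells (-0.46 ± 0.098 (SE), edgeR adjusted p = 0.0107), which no longer passed without siNC+H2O2 replicate 1 (-0.42, edgeR adjusted p = 0.0634), siNC+H2O2 replicate 3 (-0.38, 0.0907) or siprdx1+H2O2 replicate 3 (-0.42, 0.0717), or in a fit of these 2 groups alone (0.0671). Plk3 overlaps Tctex1d4 on the opposite strand by 84 bp, and that gene had 199 counts over all libraries. Whether the counting used strand is not given in the sources used here, so reads of the overlap cannot be assigned to one gene.

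The promoter windows of the pair are shown because both hold CRE letters, whose part in the levels was not tested. That of Plk2 lies at chr13:110394794-110395093 (plus strand) and holds a full CRE at -62, whose letters include a half-site on each strand, a further half-site at 22 and 2 SP1 boxes. That of Plk3 lies at chr4:117133914-117134213 (minus strand) and holds 2 half-sites, at -132 and -63, and 1 SP1 box. Matches are in capitals.
Plk2: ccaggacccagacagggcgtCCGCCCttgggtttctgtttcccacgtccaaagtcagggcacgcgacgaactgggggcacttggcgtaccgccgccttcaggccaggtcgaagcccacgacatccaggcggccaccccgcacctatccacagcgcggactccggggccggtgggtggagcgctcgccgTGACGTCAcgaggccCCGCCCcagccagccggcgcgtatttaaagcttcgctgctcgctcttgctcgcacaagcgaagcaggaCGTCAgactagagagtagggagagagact
Plk3: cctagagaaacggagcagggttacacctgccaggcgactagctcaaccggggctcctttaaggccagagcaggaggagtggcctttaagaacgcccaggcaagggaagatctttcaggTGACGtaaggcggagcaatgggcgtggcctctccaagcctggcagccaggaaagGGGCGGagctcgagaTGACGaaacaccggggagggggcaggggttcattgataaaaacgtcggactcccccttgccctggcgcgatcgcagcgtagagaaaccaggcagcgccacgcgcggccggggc

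Rgs1 and Rgs2 encode regulators of G protein signalling, which speed GTP hydrolysis by G alpha subunits. Both lie on the minus strand of chromosome 1, Rgs1 at 144242296 to 144249242 (ENSMUSG00000026358) and Rgs2 at 143999338 to 144004161 (ENSMUSG00000026360), and with fluvastatin in siprdx1 cells Rgs1 rose and Rgs2 fell. Rgs1 is best known from leukocytes. It had, after H2O2 and fluvastatin, 43.1, 41.7 and 53.0 CPM in siprdx1 and 42.8, 41.6 and 39.0 CPM in siNC, and after H2O2 alone 20.7, 14.4 and 19.0 CPM in siprdx1 and 46.0, 49.1 and 39.8 CPM in siNC. Without H2O2 it had 7.86, 6.81 and 7.82 CPM in siprdx1 and 7.66, 8.34 and 6.24 CPM in siNC. The siprdx1+H2O2 libraries therefore lay between the untreated libraries and 3 groups that overlapped one another. Rgs1 rose with fluvastatin in siprdx1 cells (1.35 ± 0.12 (SE), edgeR adjusted p = 1.02e-08), and in siNC cells its log2 difference was -0.13 ± 0.11 (SE), edgeR adjusted p = 0.454, with a 95% interval of -0.36 to 0.11. After H2O2 the siprdx1 level was 40.2% of the siNC level (-1.32 ± 0.12 (SE), edgeR adjusted p = 3.13e-07).

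The summed level of the 17 macrophage markers, of which Lyz2 was the highest at a mean of 5677 CPM, followed Rgs1 in some comparisons only. Like Rgs1, it was lower in siprdx1 than in siNC cells after H2O2 and higher with fluvastatin in siprdx1 cells. Unlike Rgs1, whose groups overlapped there, it was lower with fluvastatin in siNC cells and lower in siprdx1 than in siNC cells without H2O2. After H2O2 it was 8728 to 8925 CPM in siprdx1 and 10132 to 10750.1 CPM in siNC, after H2O2 and fluvastatin 9107 to 9565 CPM in siprdx1 and 8930.5 to 9007 CPM in siNC, and without H2O2 8378 to 8602 CPM in siprdx1 and 8889 to 9712 CPM in siNC. After H2O2, 2 of the 17 markers were lower in siprdx1 cells, against 1.83% of all tested genes. They were Marco with -0.80 ± 0.061 and Lyz2 with -0.24 ± 0.054 on the log2 scale (edgeR adjusted p = 1.13e-08 and 0.0142). At an unadjusted p below 0.05 in edgeR 11 were lower, and the share of all tested genes at that level was not computed. Marco was also lower without H2O2 (-0.92 ± 0.062, edgeR adjusted p = 3.03e-09), where the log2 difference of Rgs1 was 0.0096 ± 0.15. With fluvastatin 3 of the 17 macrophage markers rose in siprdx1 cells, against 12.6% of all tested genes. In siNC cells 1 rose and 8 fell, against 13.5% and 11.3% of all tested genes. The part of macrophages in the Rgs1 difference was not tested, and in bulk RNA fewer cells of a type and less RNA per cell cannot be told apart.

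Rgs2 encodes a regulator of Gq signalling known from smooth muscle that also inhibits adenylyl cyclases, and it was the member that fell with fluvastatin. It had 28.4, 26.2 and 29.3 CPM in siprdx1 and 25.6, 24.4 and 24.9 CPM in siNC after H2O2 and fluvastatin, and 52.8, 55.8 and 57.2 CPM in siprdx1 and 66.2, 68.3 and 65.5 CPM in siNC after H2O2 alone. Without H2O2 it had 45.1, 42.3 and 46.3 CPM in siprdx1 and 43.1, 43.9 and 43.5 CPM in siNC. In both arms the fluvastatin libraries lay below the untreated ones and the H2O2 libraries above them, with no overlap. The fall with fluvastatin was to 0.505 of the H2O2 level in siprdx1 (-0.99 ± 0.060 (SE), edgeR adjusted p = 8.28e-12) and to 0.375 in siNC (-1.42 ± 0.060 (SE), edgeR adjusted p = 1.57e-14). After H2O2 the knockdown gave -0.27 ± 0.057 (SE), edgeR adjusted p = 0.00895, a call lost without siNC+H2O2 replicate 2 (-0.25, edgeR adjusted p = 0.0537) and in a fit of the 2 groups alone (0.0744). Summed smooth muscle markers (8 of 8 tested) were higher in the fluvastatin libraries, at 2102 to 2360.0 CPM in siprdx1+H2O2+FV against 1106 to 1253 CPM in siprdx1+H2O2, and 2424 to 2581 CPM in siNC+H2O2+FV against 1328 to 1418 CPM in siNC+H2O2. Without H2O2 they were at 1109 to 1218 CPM in siprdx1 and 1337 to 1507 CPM in siNC. With fluvastatin 5 of the 8 rose and 1 fell in siprdx1 cells, against 12.6% and 11.0% of all tested genes. In siNC cells 5 rose, against 13.5% of all tested genes. The part of the smooth muscle markers in the Rgs2 values was not tested. The Rgs2 window at chr1:144004100-144004399 (minus strand), shown as that of the member that fell, held CRE half-sites at -185 and -67, an EGR site at -176, 4 SP1 boxes and 1 CCAAT box, in capitals. CRE half-sites were thus in the windows of Rgs2, Plk2 and Plk3, beside 20.8% of all windows, and their part in the levels was not tested.
Rgs2: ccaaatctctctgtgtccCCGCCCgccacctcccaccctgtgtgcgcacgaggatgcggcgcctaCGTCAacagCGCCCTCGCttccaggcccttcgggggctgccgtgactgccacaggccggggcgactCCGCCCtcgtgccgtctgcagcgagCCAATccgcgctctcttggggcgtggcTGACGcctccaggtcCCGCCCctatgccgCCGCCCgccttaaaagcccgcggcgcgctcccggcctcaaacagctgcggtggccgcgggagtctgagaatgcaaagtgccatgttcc

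Gem (ENSMUSG00000028214, chromosome 4, 11704457 to 11714752, plus strand) encodes a small GTPase of the RGK family that binds the beta subunits of voltage-gated calcium channels. With H2O2 and fluvastatin Gem had 47.3, 49.1 and 46.0 CPM in siprdx1 and 33.9, 34.4 and 32.4 CPM in siNC, and after H2O2 alone 40.7, 36.5 and 36.0 CPM in siprdx1 and 29.7, 30.2 and 29.6 CPM in siNC. Without H2O2 it had 31.7, 31.0 and 33.0 CPM in siprdx1 and 27.0, 25.7 and 26.6 CPM in siNC. Its highest group mean was 1.80 times its lowest, the narrowest range of the 10 genes, and within each treatment all siprdx1 libraries stood above all siNC libraries, which held for no other member. The knockdown difference was 0.50 ± 0.061 (SE), edgeR adjusted p = 1.21e-05 after H2O2 and fluvastatin, 0.34 ± 0.062 (SE), edgeR adjusted p = 0.00242 after H2O2 and 0.27 ± 0.063 (SE), edgeR adjusted p = 0.0196 without H2O2. The call after H2O2 was lost in a fit of the 2 groups alone (edgeR adjusted p = 0.0552). The call without H2O2 was lost in the fit of 2 groups (0.105), without the low-count filter (0.09) and when siNC replicate 2 (0.0812), siNC replicate 3 (0.0745), siprdx1 replicate 1 (0.0641) or siprdx1 replicate 3 (0.11) was left out, with log2 fold changes from 0.25 to 0.30 over all settings. Fluvastatin raised Gem in siprdx1 cells (0.33 ± 0.060 (SE), edgeR adjusted p = 0.000188), while in siNC cells it missed the threshold at 0.17 ± 0.063 (SE), edgeR adjusted p = 0.0515 and passed with RLE size factors (0.0482) and without siNC+H2O2+FV replicate 3 (0.0478).

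Ppp1r10 (ENSMUSG00000039220, chromosome 17, 35916434 to 35932283, plus strand) encodes PNUTS, which targets protein phosphatase 1 to RNA polymerase II and the nucleus. After H2O2 and fluvastatin it had 147, 145 and 133 CPM in siprdx1 and 133, 133 and 140.4 CPM in siNC, and after H2O2 alone 54.3, 64.0 and 55.8 CPM in siprdx1 and 117, 114 and 113 CPM in siNC. Without H2O2 it had 34.0, 38.6 and 34.6 CPM in siprdx1 and 37.5, 37.7 and 39.1 CPM in siNC. As with Ier2 and Rgs1, most of the gap between the untreated and the fluvastatin libraries of siNC cells was already present after H2O2 alone, and less of it in siprdx1 cells. The siprdx1 level after H2O2 was 50.7% of the siNC level (-0.98 ± 0.064 (SE), edgeR adjusted p = 1.15e-09). Fluvastatin raised Ppp1r10 2.44-fold in siprdx1 (1.28 ± 0.064 (SE), edgeR adjusted p = 2.13e-13) and 1.18-fold in siNC (0.24 ± 0.062 (SE), edgeR adjusted p = 0.00632), the smaller of which no longer passed with counts scaled by library size alone (0.14, edgeR adjusted p = 0.0963). A stretch of 431 bp of Ppp1r10 is 90.7% identical to Gm8801, which had 1 count in all libraries together, and Mir1894, which overlaps Ppp1r10, had 0.

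Set beside one another, the H2O2 values that served to choose genes ran over a wide range. Groups with and without H2O2 did not overlap for 9 members in siprdx1 cells (Plk3 overlapped) and for 10 in siNC cells, all higher with H2O2, against 10.5% and 12.5% of all tested genes. The log2 differences ran from 0.063 ± 0.10 (Plk3) to 3.38 ± 0.14 (Arc) in siprdx1 and from 0.18 ± 0.063 (Gem) to 5.13 ± 0.12 (Arc) in siNC. In siNC cells the members nearest to Gem at the low end were Plk3 (0.43 ± 0.098), Rgs2 (0.62 ± 0.058) and Ier3 (0.73 ± 0.075). With H2O2 and fluvastatin together over no H2O2, 9 members were higher and Rgs2 was lower without overlap in both arms, against 20.0% higher and 20.3% lower of all tested genes in siprdx1 and 17.2% and 18.4% in siNC. The largest of these combined log2 differences was that of Arc, 7.96 ± 0.12 in siprdx1 and 7.83 ± 0.12 in siNC, followed in siprdx1 by Plk3 (3.22 ± 0.095) and in siNC by Ier2 (3.00 ± 0.089).

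**Figure D2:**
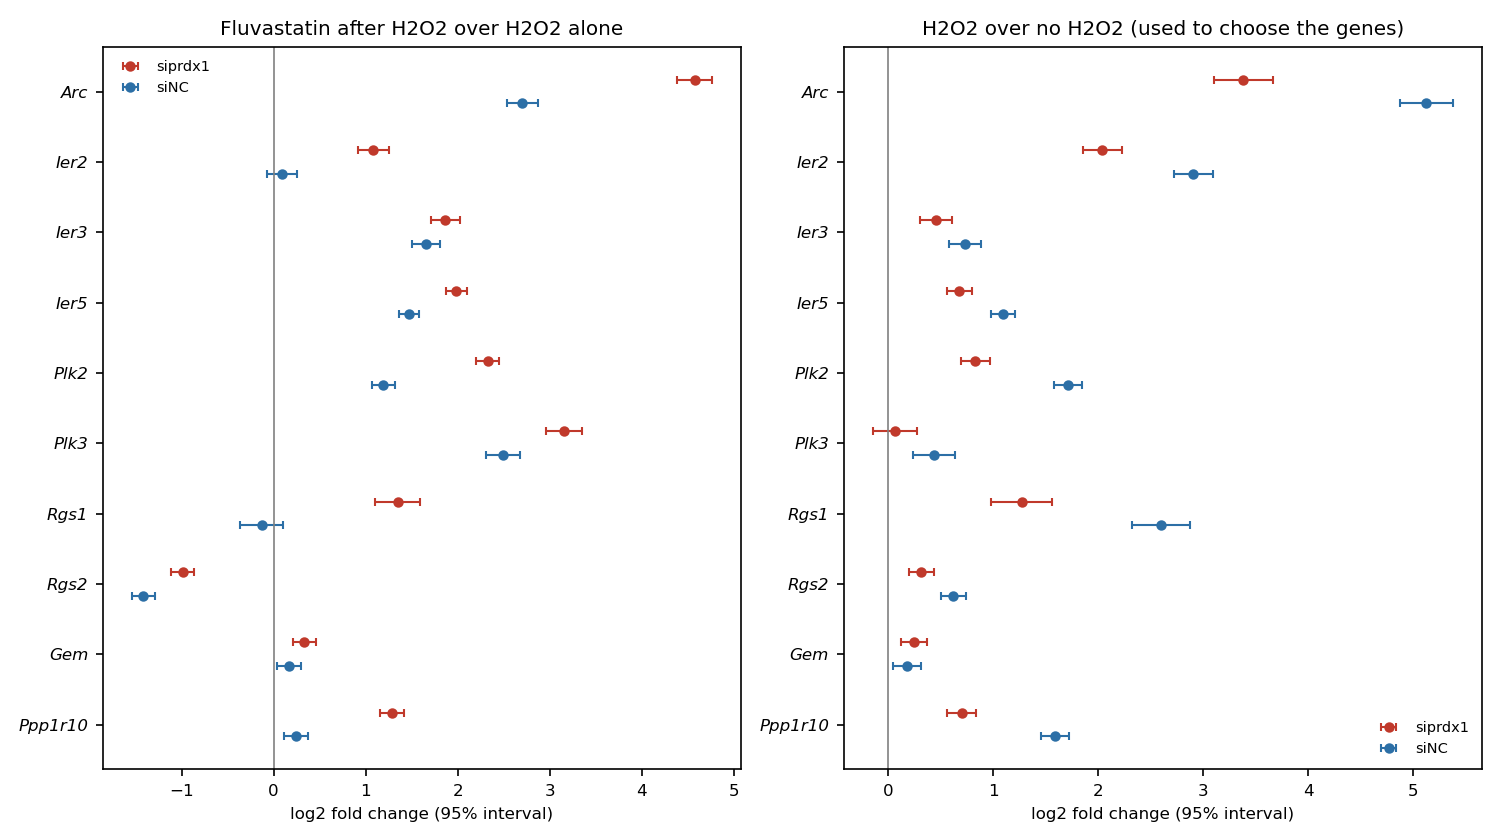
Log2 fold change (horizontal axes) of each gene for fluvastatin after H2O2 over H2O2 alone (left) and for H2O2 over no H2O2 (right, values used to choose the genes), in siprdx1 (red) and siNC (blue) cells. Points are edgeR estimates and bars 95% intervals. On the left every siprdx1 point lies to the right of its siNC point, with Arc at 4.58 in siprdx1 and 2.70 in siNC and Rgs2 the one gene left of 0 in both arms.

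The median log2 fold change of the 10 genes with fluvastatin was 1.61 in siprdx1 and 0.72 in siNC cells, beside -0.0061 and -0.011 over all genes tested. The fluvastatin comparisons use the same H2O2 libraries as the H2O2 comparisons, so a choice of genes by their level in those libraries bears on them, and its part was not tested. The difference between the arms was itself tested as an interaction, which is built on the same H2O2 libraries and carries the same limit. Fluvastatin had a larger log2 fold change in siprdx1 than in siNC cells for 8 members, against 0.463% of all tested genes, and a smaller one for 0 (0.189%). That count of 0 was also 0 at an unadjusted p below 0.05, and in DESeq2 and limma voom.

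The interaction was 1.87 ± 0.11 (SE), edgeR adjusted p = 7.43e-10 for Arc, 1.47 ± 0.16 (SE), edgeR adjusted p = 1.18e-05 for Rgs1 and 1.13 ± 0.084 (SE), edgeR adjusted p = 1.34e-08 for Plk2. These are the members whose siprdx1+H2O2 libraries lay farthest below siNC+H2O2, together with Ppp1r10 (1.05 ± 0.089 (SE), edgeR adjusted p = 1.48e-07) and Ier2 (0.99 ± 0.11 (SE), edgeR adjusted p = 1.18e-05). By construction the interaction is the log2 knockdown difference after H2O2 and fluvastatin minus that after H2O2. This match in order therefore follows largely from how the interaction is built and is not a separate result. For Ier5 it was 0.51 ± 0.074 (SE), edgeR adjusted p = 0.000436. For Plk3 it was 0.66 ± 0.13 (SE), edgeR adjusted p = 0.0104, lost without siNC+H2O2 replicate 3 (0.59, edgeR adjusted p = 0.0585) or siprdx1+H2O2 replicate 3 (0.63, 0.0512). For Rgs2 it was 0.43 ± 0.085 (SE), edgeR adjusted p = 0.0132, which means a smaller fall in siprdx1 cells, and it was lost without siNC+H2O2+FV replicate 2 (0.41, 0.0569), siprdx1+H2O2+FV replicate 1 (0.42, 0.0601) or siprdx1+H2O2+FV replicate 3 (0.40, 0.0549). Gem had an interaction of 0.16 ± 0.087, which did not pass (edgeR adjusted p = 0.443, 95% interval -0.015 to 0.34).

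**Figure D3:**
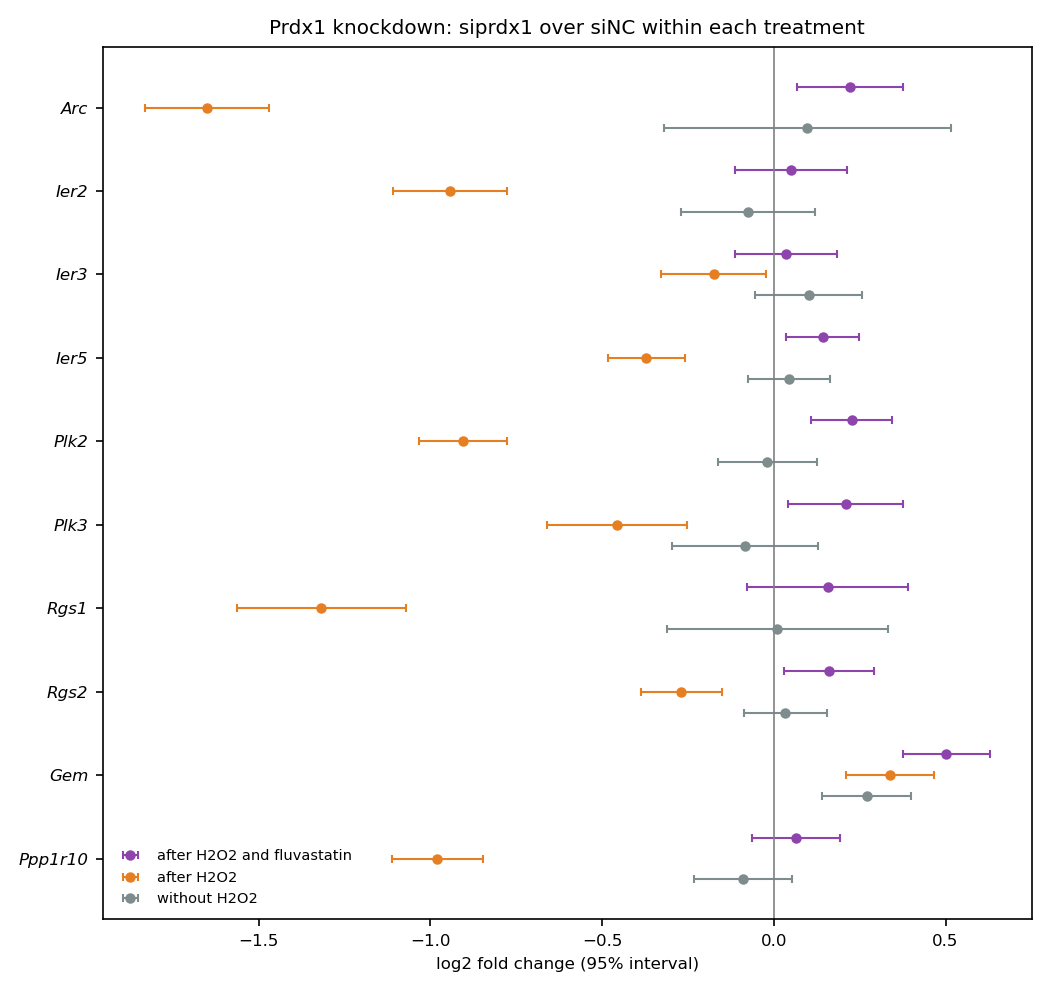
Log2 fold change (horizontal axis) of each gene in siprdx1 over siNC cells after H2O2 and fluvastatin (purple), after H2O2 (orange) and without H2O2 (grey). Points are edgeR estimates and bars 95% intervals. The orange points lie left of 0 for 9 genes, down to -1.65 for Arc, while the purple points lie between 0.035 (Ier3) and 0.50 (Gem).

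Across the knockdown comparisons the median log2 fold change of the 10 genes was 0.16 after H2O2 and fluvastatin, -0.68 after H2O2 and 0.022 without H2O2, beside 0.0046, 0.0038 and 0.0034 over all genes tested. After both treatments 0 members were lower in siprdx1 cells (2.35% of all tested genes), and without H2O2 also 0 (1.67%). These counts were 0 in edgeR at an unadjusted p below 0.05 and in DESeq2 and limma voom too. At that unadjusted level 6 members were higher after H2O2 and fluvastatin, and DESeq2 and limma voom each called 3, Arc being the added one. The shares of all tested genes by these rules were not computed, so these counts have no background beside them. The knockdown after H2O2 shares its libraries with the H2O2 comparisons, so the choice of genes bears on it, and the part of that choice was not tested. The comparison after H2O2 and fluvastatin shares none of those libraries.

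Other early response genes were described with the same fit, from lists chosen with results of these data known. Of 8 FOS, JUN and ATF3 factors, 8 rose with fluvastatin in siprdx1 and 6 in siNC, where 1, Fos, fell, and 5 were lower in siprdx1 than in siNC cells after H2O2, with Fosb at -1.38 ± 0.094, Fos at -1.14 ± 0.064 and Jun at -0.91 ± 0.068. All 7 EGR and NR4A factors rose with fluvastatin in both arms and 3 were lower after H2O2 with knockdown, Nr4a1 (-0.91 ± 0.075), Egr1 (-0.82 ± 0.057) and Egr2 (-0.50 ± 0.067). Of 48 further early response genes, 47 rose with fluvastatin in siprdx1 and 45 in siNC, and 8 were lower with knockdown after H2O2, with Btg2 (-1.05 ± 0.042), Klf2 (-0.67 ± 0.091) and Nfkbiz (-0.64 ± 0.089) as the furthest. The interaction was positive for 5 of the 8, 3 of the 7 and 6 of the 48 genes, where DESeq2 called 12 of the 48. Of all tested genes, 12.6% rose with fluvastatin in siprdx1, and 13.5% rose and 11.3% fell in siNC. After H2O2, 1.83% of all tested genes were lower with knockdown, and 0.463% had a positive interaction in edgeR. For the knockdown after H2O2 the median log2 fold changes were -0.56, -0.50 and -0.091 for the 3 lists, beside -0.68 for the 10 genes. With H2O2 in siNC cells the medians were 1.58, 0.53 and 0.27 for the 3 lists, beside 1.34 for the 10 genes. The 10 genes were proposed for H2O2 rises in these libraries, and the part of that choice in their median was not tested.

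**Figure D4:**
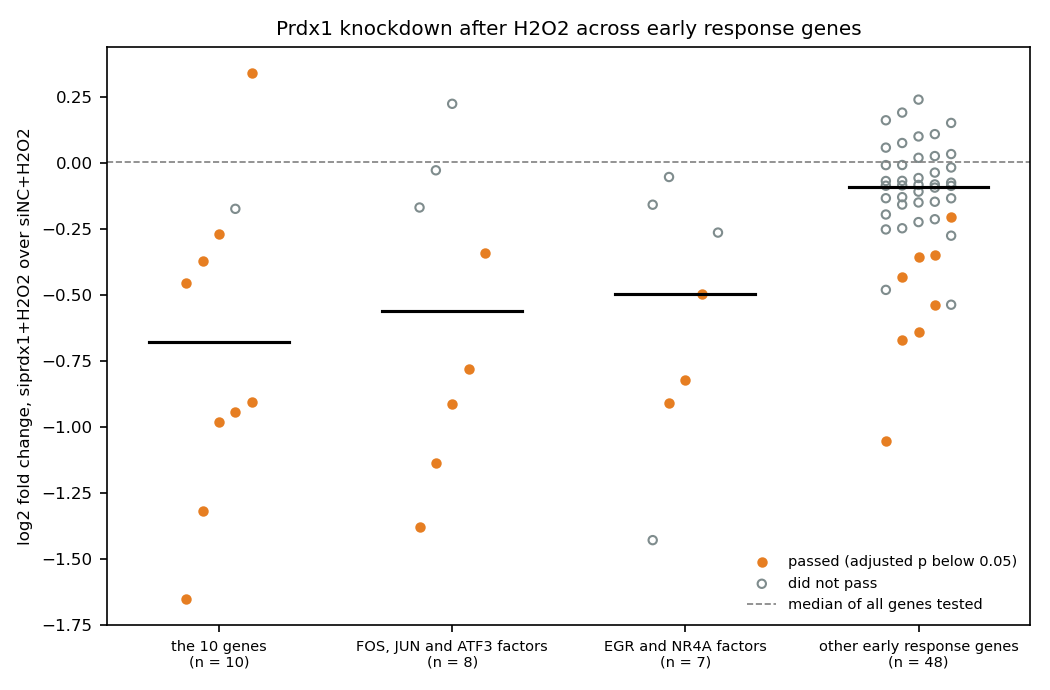
Log2 fold change of siprdx1+H2O2 over siNC+H2O2 (vertical axis) for the 10 genes and for 3 lists of other early response genes. Each circle is a gene, filled where it passed the test, black bars are list medians and the dashed line is the median of all genes tested. The bars run from -0.68 for the 10 genes to -0.091 for the 48 other early response genes. The 10 genes were proposed for H2O2 rises in these libraries, and the part of that choice was not tested.

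Of 13 tested RGS genes other than Rgs1 and Rgs2, 3 rose and 2 fell with fluvastatin in each arm, with Rgs16 at 2.53 ± 0.27 in siprdx1 and 2.54 ± 0.30 in siNC, and 0 passed for the knockdown after H2O2 (edgeR, DESeq2 and limma voom alike), with 1 higher and 4 lower at an unadjusted p below 0.05. Of all tested genes, 12.6% rose and 11.0% fell with fluvastatin in siprdx1, and 13.5% and 11.3% in siNC. Of 12 G protein alpha subunits and adenylyl cyclases, on which RGS proteins and Gs signalling act, 2 fell with fluvastatin in siprdx1, Gnai1 (-0.25 ± 0.079) and Adcy6 (-0.20 ± 0.057), and 4 rose in siNC. Of 2 IER relatives, Ier5l rose with fluvastatin by 0.59 ± 0.11 in siprdx1 and 0.51 ± 0.11 in siNC. Of 2 other polo-like kinases tested, the mitotic Plk1 fell in siNC (-0.38 ± 0.079). Of 2 other RGK GTPases tested, Rem1 fell by 0.45 ± 0.085 in siprdx1 and 0.51 ± 0.087 in siNC, and of 4 calcium channel beta subunits, the partners of GEM, 0 passed in either arm in edgeR, DESeq2 or limma voom, with 1 higher in siNC at an unadjusted p below 0.05.

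Among 5 genes of protein phosphatase 1 and the PNUTS complex, Tox4, a subunit of the complex, rose by 0.47 ± 0.052 in siprdx1 and 0.50 ± 0.053 in siNC, and Wdr82, another subunit, fell in siprdx1 (-0.24 ± 0.062). Of 5 protein phosphatase 2A subunits 0 passed with fluvastatin in either arm in edgeR, DESeq2 or limma voom, with 1 higher in siprdx1 at an unadjusted p below 0.05. HSF1 and 9 heat shock genes, described because IER5 activates HSF1, gave more calls. Of these 10, 9 rose with fluvastatin in siprdx1 and 8 in siNC (12.6% and 13.5% of all tested genes), with Hspa1b at 2.21 ± 0.093 in siprdx1 and 1.89 ± 0.093 in siNC. Dnajb1 (-0.72 ± 0.054) and Hspb1 (-0.38 ± 0.073) were the 2 of these genes that were lower in siprdx1 than in siNC cells after H2O2, against 1.83% of all tested genes. The part of Ier5 in these calls was not tested.

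The genes most like each member were found by Pearson correlation of log2 CPM over the 18 libraries, which share 6 treatment groups, so r is a description. Arc was closest to Btg2 (r = 0.998), an antiproliferative early response gene, then Zfp36 and Dusp1. Ier2 was closest to Fos (0.992), and Rgs1 (0.980) and Ppp1r10 (0.991) to Jun. Ier5 was closest to Fosb (0.997), Ier3 to the kinase gene Pim1 (0.996), Plk2 to Btg2 (0.989) and Plk3 to Egr2 (0.997). Gem stood apart, with Nqo1 (0.969), a quinone reductase, and the endoplasmic reticulum chaperone gene Hspa5 (0.952), as did Rgs2, with the transcription factor gene Cebpd (0.955). Per kb of exon the order of the members differed by treatment. Ier3 led in siprdx1+H2O2+FV (393 CPM per kb) and siNC+H2O2+FV (383), with Arc next (163 and 139.6), whereas in siNC+H2O2 Ier2 (123) and Ier3 (122) stood side by side, and without H2O2 Arc was the lowest (0.648 in siprdx1 and 0.609 in siNC).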

How the data were processed

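RNA from 18 cultures was made into stranded poly(A) libraries and sequenced on an Illumina NovaSeq with 150 bp paired-end reads, per the labels' protocols. Reads were aligned to mm10 with HISAT2 and counted with HTSeq, per the submitters' processing notes; the annotation, strand setting and versions are not given in the sources used here. The values are the authors' deposited raw read counts per gene, 15201530 to 23898435 per library.

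The counts were fitted for all 16432 genes kept by filterByExpr with edgeR 4.0.16 (R 4.3.3) as 6 group means, with TMM scaling, a robust quasi-likelihood fit and Benjamini-Hochberg adjustment within each comparison at a threshold of 0.05. The SE is the log2 fold change divided by the square root of F, and intervals are 95% on that SE. The biological coefficient of variation was 7.01%. Counting error and replicate spread are both within that fit. Alternatives were DESeq2 1.42.0, limma voom 3.58.1, RLE or no scaling, no low-count filter, only the groups compared, the replicate number as a block, a minimum log2 fold change of 1, and each library left out.

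All 10 members are named; from other lists at most 3 genes per comparison are named, those with the largest absolute log2 fold change past the threshold and at least 1 CPM on average. For likeness, genes of at least 1 CPM were ranked by r. The members and lists were chosen with earlier results of these data known. Shares of all tested genes were computed for edgeR calls at the adjusted threshold and for groups that did not overlap. None were computed for counts at an unadjusted p or from DESeq2 or limma voom. IDs were matched to GENCODE M21, where 55227 of 55487 were found; near-identical transcripts were searched with blastn 2.17.0+.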

Additional observations from a re-analysis of the deposited data

Results flagged for a closer look

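The effect of fluvastatin after H2O2 differed between the siprdx1 and siNC arms for 8 of the 10 genes by edgeR's test of the interaction, always with the more positive log2 fold change in siprdx1 cells. Of all tested genes, 0.463% had such a positive interaction and 0.189% a negative one. The difference of log2 fold changes was 1.87 for Arc, 1.47 for Rgs1, 1.13 for Plk2, 1.05 for Ppp1r10, 0.99 for Ier2, 0.66 for Plk3, 0.51 for Ier5 and 0.43 for Rgs2. For Rgs2 it marks a smaller fall. For Arc, Plk2, Ppp1r10, Plk3 and Ier5 it marks a larger rise, while Rgs1 and Ier2 rose in siprdx1 cells and did not pass in siNC cells. The calls of Plk3 and Rgs2 were lost in some fits with one library left out. There the edgeR adjusted p was 0.0585 or 0.0512 for Plk3 and from 0.0549 to 0.0601 for Rgs2. The interaction is built on the H2O2 libraries whose levels served to choose the genes, and the part of that choice in it was not tested. It is also the log2 knockdown difference after H2O2 and fluvastatin minus that after H2O2, so it is not independent of those differences. In each case the siprdx1+H2O2 libraries were lower than the siNC+H2O2 libraries, while after H2O2 and fluvastatin Plk2 was the one of these 8 genes that passed as different between the arms in edgeR with all libraries. That Plk2 call was lost in 5 of 6 fits with one library left out, and Arc passed in DESeq2 (adjusted p = 0.037), in limma voom (0.0396) and in edgeR without the low-count filter (0.0157). Groups of 3 libraries are too small for a check of single libraries that stand apart.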

How the results depend on the processing

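Counts of members called in edgeR were recomputed under each alternative; causes of changes were not tested. A minimum log2 fold change of 1 left 0 members lower with fluvastatin in siprdx1, 4 with a positive interaction, 2 lower with knockdown after H2O2, and 0 higher with knockdown after H2O2, after H2O2 and fluvastatin, or without H2O2. A fit of only the groups compared left 0 higher with knockdown after H2O2 and 0 without H2O2, and omitting the low-count filter also left 0 without H2O2. With one library left out, 6 to 7 members rose with fluvastatin in siNC, 7 to 8 were lower with knockdown after H2O2, 7 to 8 had a positive interaction, 1 to 2 were higher with knockdown after H2O2 and fluvastatin, and 0 to 1 without H2O2. That minimum fold change ended the fluvastatin calls of Rgs2 (-0.99) and Gem (0.33) in siprdx1 and of Ppp1r10 (0.24) in siNC. Apart from it, the fluvastatin calls in siprdx1 held for every member in all 130 values from the other alternatives.

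The labels number replicates without saying what a number shares, and correlations of the deviations of same-numbered libraries were all over 0.1 in 1 comparison, H2O2 in siNC (0.118 to 0.135), which is described without a test. In each tested comparison at least 1 pair was below 0.1, with 0.0576 to 0.158 for fluvastatin in siNC, -0.012 to 0.23 for fluvastatin in siprdx1, -0.0591 to 0.121 for knockdown after H2O2, -0.073 to 0.0956 after H2O2 and fluvastatin and -0.066 to 0.035 without H2O2, so the libraries were not treated as paired there. For H2O2 in siprdx1 they ran from -0.0063 to 0.256. With the replicate number as a block, 6 members rose with fluvastatin in siNC, 9 in siprdx1, 8 were lower with knockdown after H2O2 and 8 had a positive interaction, as without it.

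Values that changed sign had not passed and were near 0. Scaling by library size alone shifted the median of all genes by -0.10 in both fluvastatin comparisons, and gave -0.0097 for Ier2 with fluvastatin in siNC and 0.015 for Plk2 with knockdown without H2O2. With one library left out, knockdown without H2O2 ran from -0.10 to 0.36 for Arc (below 0 without siNC replicate 1 or siprdx1 replicate 2), from -0.13 to 0.027 for Ier2 (above 0 without siNC replicate 3), from -0.074 to 0.053 for Plk2 (above 0 without replicate 2 of either arm), and from -0.10 to 0.10 for Rgs1 (below 0 without siNC replicate 3 or siprdx1 replicate 1 or 3). Knockdown after H2O2 and fluvastatin ran from -0.0078 to 0.095 for Ier2 (below 0 without siprdx1+H2O2+FV replicate 2) and from -0.025 to 0.11 for Ier3 (below 0 without siNC+H2O2+FV replicate 1). H2O2 in siprdx1, described only, ran from -0.014 to 0.15 for Plk3 (below 0 without replicate 1 of either group). Depth limits Arc most, at 28 to 57 counts in untreated libraries.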
